A study of Homo sapiens with 6 samples.

Results

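Transcripts of the NRF2 antioxidant and thiol redox system were followed in 786-O, a long-established human cell line from a clear cell carcinoma of the kidney, after CRISPR-Cas9 targeting of PHF8, a histone demethylase of the JmjC family. The members are 38 genes listed by symbol, out of 54261 symbols in the deposited count table. All 38 were found, and 37 were abundant enough to be tested. GPX3, a secreted glutathione peroxidase, had 1 read in 1 control library and 0 reads in the other 5 libraries, and was not tested.

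The compared groups were 3 libraries of 786-O cells transfected with PHF8 guide RNA, described as PHF8 knockout, and 3 libraries of 786-O cells transfected with control guide RNA, described as PHF8 wild type. Both groups share the parent line and its culture medium. Whether the knockout was 1 clone or a pool, the guide sequence used and whether each library had its own culture are not given in the labels. Each p-value is thus set against library-to-library spread that may be only technical. In bulk RNA, fewer cells with a transcript and less of it per cell cannot be told apart.

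NRF2, encoded by NFE2L2, is a transcription factor that KEAP1 holds in the cytoplasm and hands to the ubiquitin ligase CUL3 for degradation. Electrophiles and oxidants modify cysteines of KEAP1, NRF2 then accumulates, pairs with a small MAF protein and binds antioxidant response elements in genes for glutathione synthesis, the thioredoxin system, quinone reduction and drug metabolism. BACH1 competes for the same elements as a repressor, and the autophagy receptor p62, encoded by SQSTM1, can sequester KEAP1. Because most of this regulation acts on the NRF2 protein, transcript counts report on the target genes and not on NRF2 activity itself.

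The libraries held 25632275 to 29095133 counted reads in knockout cells and 21533615 to 25055762 in control cells. The PHF8 transcript stood at 10.8, 6.74 and 12.8 CPM (a read count scaled to its library's size) in knockout libraries 1, 2 and 3, against 36.6, 35.1 and 32.9 CPM in control libraries (log2 fold change -1.78, SE 0.21; edgeR adjusted p = 1.19e-04). Gene-wide counts cannot tell edited from intact PHF8 transcripts. Of 10 markers of the renal carcinoma line, 9 reached at least 1 CPM in all 6 libraries and CA9 did not, with a sum of 7160 to 8693 CPM in knockout and 7447 to 7566 CPM in control libraries. Most of this sum was VIM (4993 to 6608 CPM in knockout and 5402 to 5520 CPM in control libraries). Single markers moved both ways, with PAX2 lower in knockout (2.47 to 3.23 against 6.27 to 7.62 CPM) and PAX8 higher (300 to 368 against 222 to 245 CPM). Leukocyte markers summed to 0.234 to 0.309 CPM in knockout and 0.210 to 0.359 CPM in control libraries, with 4 of 5 at 0 reads everywhere, and all 4 erythroid markers were at 0. Endothelial markers (1.40 to 2.89 CPM in knockout and 1.47 to 1.58 CPM in control libraries, 1 of 4 at 0) and hepatocyte markers (0 to 0.0390 CPM in knockout and 0 to 0.0464 CPM in control libraries, 1 of 3 at 0) were low in both groups. The sum of 4 fibroblast markers was lower in knockout cells, at 0.694 to 1.44 CPM against 4.18 to 4.33 CPM in control cells, with 0 of 4 at 0. Its part in the results was not tested.

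More members of the system were higher than lower in knockout cells. Among the 37, 20 rose and 6 fell, while 11 missed an adjusted p of 0.05 (edgeR quasi-likelihood test, Benjamini-Hochberg adjustment over 14398 genes). The difference between the groups was broad in the whole table, where 59.7% of genes passed, 28.9% as higher and 30.8% as lower; among the members these shares were 70.3%, 54.1% and 16.2%. The median log2 fold change was 0.36 over the members and -0.01 over all tested genes. Past the 2-fold criterion of the series 8 members rose and 1 fell, against 9.20% and 14.2% of all genes. The knockout and control libraries did not overlap for 28 of 37 members, against 66.8% of all genes. With library totals in place of scaling factors the median of all genes moved to -0.18 and that of the members to 0.19, and the split of all called genes was 3153 higher and 5441 lower in place of 4158 and 4435.

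**Figure D1:**
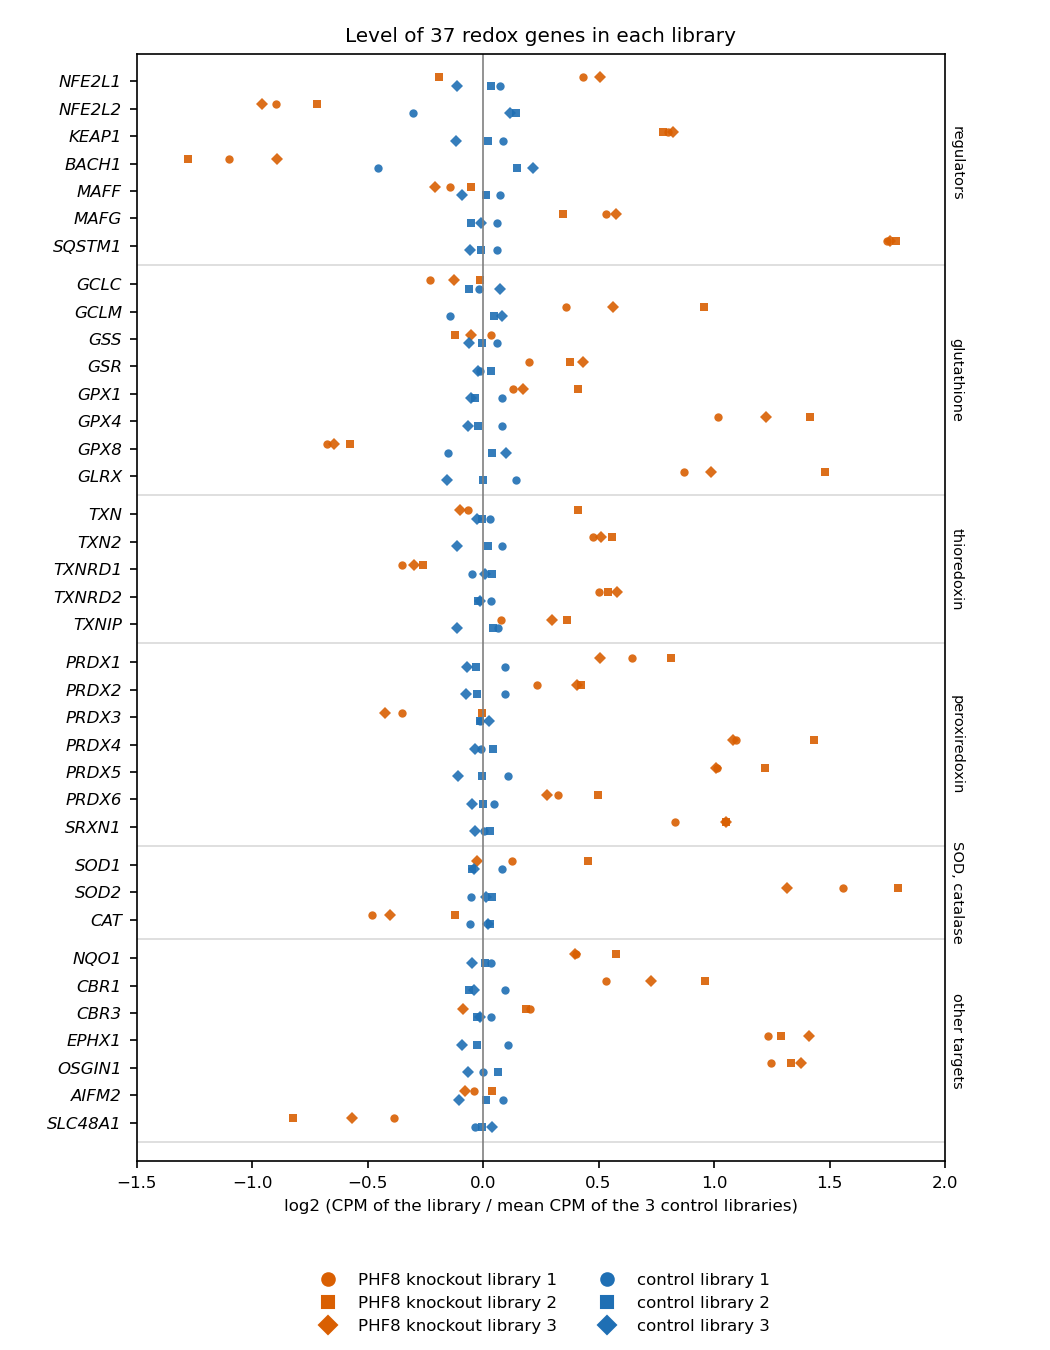
Level of each of 37 tested members in each library, as log2 of its CPM over the mean CPM of the 3 control libraries, with knockout libraries in orange and control libraries in blue. SQSTM1 (2084 to 2146 CPM in knockout and 597 to 648 CPM in control libraries) and SOD2 stand farthest to the right and BACH1 and NFE2L2 farthest to the left, while NFE2L1, TXN and PRDX3 are spread mainly by knockout library 2.

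Promoter windows of 31 members were at hand in RefSeq (250 bases before to 50 bases after a transcript start, build GRCh38.p14). They were searched on both strands for the core of the antioxidant response element, TGACNNNGC, which 7 of the 31 members hold in at least 1 window (22.6%, against 16.1% of all genes with windows; 15.7% of 51 member windows against 13.3% of all windows). Of these 7, 5 passed the test, a share near the 70.3% of all tested members (59.7% of all genes). EPHX1 was the only member past 2-fold with a match, and the other 4 were chosen after their values were seen, to show windows of genes that moved in both directions. Each stretch reads 5′ to 3′ on the strand that carries the core, which is in capitals. EPHX1 (chr1:225825260-225825300, plus strand), GCLM (chr1:93909440-93909480, plus strand) and CBR1 (chr21:36069849-36069889, minus strand) have 1 match each, centred 74, 30 and 155 bases before a start. KEAP1 has a pair (a, chr19:10502778-10502818, plus strand, and b, chr19:10502801-10502841, minus strand), 27 and 50 bases before the same start. TXNRD1 has 3 (a, chr12:104215664-104215704, plus strand, b, chr12:104215755-104215795, minus strand, and c, chr12:104286914-104286954, minus strand), 95, 4 and 98 bases before its starts.
EPHX1: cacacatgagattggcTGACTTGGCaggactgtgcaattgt
GCLM: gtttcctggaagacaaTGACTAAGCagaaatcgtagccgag
CBR1: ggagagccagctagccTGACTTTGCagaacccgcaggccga
KEAP1 a: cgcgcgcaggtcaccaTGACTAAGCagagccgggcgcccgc
KEAP1 b: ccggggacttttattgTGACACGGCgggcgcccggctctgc
TXNRD1 a: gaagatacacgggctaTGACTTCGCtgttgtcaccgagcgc
TXNRD1 b: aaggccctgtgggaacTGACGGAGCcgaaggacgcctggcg
TXNRD1 c: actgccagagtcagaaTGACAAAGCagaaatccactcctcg
In the annotation of GENCODE, EPHX1's core lies in an intron of EPHX1, GCLM's and both of KEAP1 in annotated exons of the same genes, TXNRD1 a outside any gene and TXNRD1 b and c in TXNRD1 exons, and CBR1's in an exon of the antisense gene CBR1-AS1 and within SETD4. The cores of GCLM and KEAP1 a have the same letters, and the stretches of KEAP1 a and b overlap. Of the 10 cores found in members, 1 overlapped an AP-1 motif (TGACTCA or TGAGTCA), in AIFM2, which did not pass the test. Matches are letters in a window and do not show binding.

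Among the 7 regulators, 3 rose and 2 fell (42.9% and 28.6%, against 28.9% and 30.8% of all genes). The transcripts of NRF2 and its inhibitor KEAP1 moved in opposite directions. NFE2L2 (chromosome 2, 177218667 to 177392756, GRCh38) had 37.6, 42.5 and 36.1 CPM in knockout libraries, against 56.7, 77.4 and 75.9 CPM in control libraries. Every knockout library lay below every control library, a 1.81-fold fall (log2 fold change -0.85, SE 0.14; edgeR adjusted p = 7.24e-04). KEAP1, the substrate adaptor that targets NRF2 for degradation (chromosome 19, 10486125 to 10503558), had 136, 134 and 138 CPM in knockout libraries, against 83.0, 79.3 and 72.1 CPM in control libraries. It rose 1.74-fold (log2 fold change 0.80, SE 0.09; edgeR adjusted p = 1.19e-04), with less spread between knockout than between control libraries. SQSTM1 (chromosome 5, 179806398 to 179838078) had the largest rise of all members in this test, though not once length and GC content were allowed for (SOD2 then had a larger one), at 2084, 2146 and 2107 CPM in knockout libraries, against 648, 617 and 597 CPM in control libraries (3.40-fold; log2 fold change 1.77, SE 0.08; edgeR adjusted p = 2.32e-06). The groups lay far apart and each was tight.

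BACH1, the repressor that competes with NRF2, had 7.04, 6.22 and 8.12 CPM in knockout libraries, against 11.0, 16.7 and 17.5 CPM in control libraries. It fell 2.11-fold (log2 fold change -1.08, SE 0.20; edgeR adjusted p = 0.00143) without overlap, the control libraries differing more among themselves. MAFG, a small MAF partner, rose 1.40-fold, at 86.4 ± 7.17 CPM in knockout and 61.7 ± 2.44 CPM in control cells (SD, n = 3 each; edgeR adjusted p = 0.00253), but did not pass with median transcripts in the offset described further on (0.10, adjusted p = 0.254). MAFF, a second small MAF gene, had 16.6 ± 0.891 CPM in knockout and 18.2 ± 1.06 CPM in control cells (log2 fold change -0.13, adjusted p = 0.356). NFE2L1, an NRF2 paralog that controls proteasome genes, had 454, 295 and 478 CPM in knockout libraries, against 354, 344 and 311 CPM in control libraries. Knockout library 2 lay below all controls and the other 2 above them, so the log2 fold change of 0.28 did not pass (edgeR adjusted p = 0.171) but was 0.47 without that library (adjusted p = 3.39e-04). With an offset for trends with length and GC, described further on, NFE2L1 passed at 0.32 (adjusted p = 0.0168), SQSTM1 lay at 1.43, BACH1 at -0.20 (adjusted p = 0.187), KEAP1 at 0.35 (adjusted p = 0.00169) and MAFF at -0.61 (adjusted p = 7.17e-04). With median in place of canonical transcripts in that offset, NFE2L1 lay at -0.11 (adjusted p = 0.529), SQSTM1 at 1.19 and KEAP1 at 0.19 (adjusted p = 0.0373). BACH1 then passed at -0.85 (adjusted p = 0.00451). NFE2L2 stayed lower, at -0.71 with the offset (edgeR adjusted p = 2.46e-04) and -0.36 with median transcripts in it (edgeR adjusted p = 0.00785).

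Of the 9 glutathione genes 8 were tested, 4 rose and 1 fell (62.5% called, near the 59.7% of all genes). Among all genes 28.9% were higher and 30.8% lower. The 2 subunits of the rate-limiting synthesis enzyme behaved differently. GCLM, the modifier subunit of glutamate-cysteine ligase, had 160, 242 and 184 CPM in knockout libraries, against 113, 129 and 132 CPM in control libraries. It rose 1.57-fold (log2 fold change 0.65, SE 0.15; edgeR adjusted p = 0.00484), with knockout library 2 highest. GCLC, the catalytic subunit, had 32.0, 37.2 and 34.4 CPM in knockout libraries, against 37.0, 36.0 and 39.5 CPM in control libraries. These values overlapped (log2 fold change -0.12, SE 0.11; edgeR adjusted p = 0.358). GSS, which completes glutathione, had 93.8 ± 5.08 CPM in knockout and 96.9 ± 4.37 CPM in control cells (SD, n = 3 each; adjusted p = 0.688). GSR, which reduces oxidised glutathione with NADPH, rose 1.26-fold (edgeR adjusted p = 0.0139), but did not pass when control library 3 (adjusted p = 0.0503) or knockout library 3 was left out (adjusted p = 0.0582), or with library totals only (0.17, adjusted p = 0.166).

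GPX4, of the glutathione peroxidase family, is the selenoenzyme that reduces lipid hydroperoxides in membranes. It had 491, 648 and 568 CPM in knockout libraries, against 257, 239 and 232 CPM in control libraries. It rose 2.35-fold (log2 fold change 1.23, SE 0.11; edgeR adjusted p = 4.41e-05). All knockout libraries lay well above the controls. GPX1, the abundant cytosolic peroxidase, had 395, 480 and 407 CPM in knockout libraries, against 382, 353 and 349 CPM in control libraries. The groups did not overlap, but the log2 fold change of 0.24 did not pass (edgeR adjusted p = 0.0646); without knockout library 1 it was 0.30 (adjusted p = 0.0499). GPX8, a peroxidase of the endoplasmic reticulum, fell 1.55-fold, at 28.5 ± 1.01 CPM in knockout and 44.1 ± 3.88 CPM in control cells (SD, n = 3 each; edgeR adjusted p = 9.79e-04). GLRX, glutaredoxin, which removes glutathione from modified proteins, had 21.2, 32.4 and 23.0 CPM in knockout libraries, against 12.8, 11.6 and 10.4 CPM in control libraries (2.20-fold higher; log2 fold change 1.14, SE 0.18; edgeR adjusted p = 5.69e-04). Under the length and GC offset, GCLM lay at 1.42 (adjusted p = 1.40e-05), GPX4 at 0.51 (adjusted p = 7.26e-04), GPX1 at -0.48 (adjusted p = 4.47e-04), GSS at -0.58 (adjusted p = 5.36e-05) and GPX8 at -0.12 (adjusted p = 0.157), while GLRX stayed near its value at 1.04. GCLC, at 0.20 with it (adjusted p = 0.0574), passed as higher with median transcripts (0.22, adjusted p = 0.0468).

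In the thioredoxin group of 5 genes 2 rose and 1 fell, all by less than 2-fold (60.0% called, near the 59.7% of all genes). TXN, cytosolic thioredoxin, had 482, 671 and 471 CPM in knockout libraries, against 515, 503 and 495 CPM in control libraries. Only knockout library 2 exceeded the controls, and the log2 fold change of 0.10 (SE 0.14) did not pass (edgeR adjusted p = 0.533). TXNRD1, the selenoenzyme that reduces cytosolic thioredoxin and a textbook NRF2 target, had 670, 715 and 696 CPM in knockout libraries, against 828, 878 and 860 CPM in control libraries. It fell 1.23-fold (log2 fold change -0.30, SE 0.08; edgeR adjusted p = 0.00933) with no overlap, but did not pass when control library 2 was left out (adjusted p = 0.0855), nor when control library 3 was (adjusted p = 0.0542). The mitochondrial pair rose together in this test: TXN2 had 99.9 ± 2.63 CPM in knockout and 70.0 ± 4.80 CPM in control cells (adjusted p = 0.00136). TXNRD2, its reductase, had 36.4 ± 1.01 CPM in knockout and 25.0 ± 0.532 CPM in control cells (SD, n = 3 each; edgeR adjusted p = 0.00130). TXNIP, an arrestin-like protein that binds and inhibits thioredoxin, had 36.4, 44.4 and 42.5 CPM in knockout libraries, against 36.1, 35.6 and 31.9 CPM in control libraries (log2 fold change 0.25, edgeR adjusted p = 0.0880, and 0.33 with adjusted p = 0.0442 without knockout library 1). None of the 3 calls of this group remained with the length and GC offset, where TXNRD1 lay at 0.06 (adjusted p = 0.412), TXN2 at -0.11 (adjusted p = 0.197) and TXNRD2 at -0.07 (adjusted p = 0.471), while TXNIP lay at 0.40 (adjusted p = 0.00440). With median transcripts in the offset TXNRD1 passed as lower (-0.38, adjusted p = 9.86e-04) and TXN as higher (0.48, adjusted p = 0.00772), and TXN2 (0.05, adjusted p = 0.583) and TXNRD2 (0.15, adjusted p = 0.165) did not pass.

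Peroxiredoxins, thiol peroxidases that thioredoxin or glutathione recharges, and sulfiredoxin, which repairs them when overoxidised, had 6 of 7 genes higher and 0 lower. The share of higher genes was 85.7%, against 28.9% of all genes, of which 30.8% were lower. PRDX1, the most abundant member per kilobase of canonical transcript in both groups, had 1673, 1884 and 1520 CPM in knockout libraries, against 1144, 1047 and 1020 CPM in control libraries. It rose 1.58-fold (log2 fold change 0.66, SE 0.10; edgeR adjusted p = 5.20e-04) without overlap. PRDX4, the peroxiredoxin of the endoplasmic reticulum, had 340, 429 and 337 CPM in knockout libraries, against 158, 164 and 155 CPM in control libraries. It rose 2.31-fold (log2 fold change 1.21, SE 0.11; edgeR adjusted p = 4.39e-05), the control libraries lying close together. PRDX5, found in mitochondria, peroxisomes and cytosol, had 497, 573 and 495 CPM in knockout libraries, against 265, 245 and 228 CPM in control libraries (2.12-fold higher; log2 fold change 1.08, SE 0.10; edgeR adjusted p = 4.39e-05). SRXN1, sulfiredoxin, had 206, 240 and 240 CPM in knockout libraries, against 116, 118 and 113 CPM in control libraries. It rose 1.98-fold (log2 fold change 0.98, SE 0.10; edgeR adjusted p = 5.27e-05), just under the 2-fold criterion.

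The other peroxiredoxins moved less. PRDX2, the second cytosolic form, rose 1.28-fold (edgeR adjusted p = 0.0104), but did not pass with library totals only (0.19, adjusted p = 0.122) and turned round with the length and GC offset (log2 fold change -0.32, adjusted p = 0.00321). PRDX6, which uses glutathione, rose 1.29-fold, at 396 ± 32.4 CPM in knockout and 307 ± 10.0 CPM in control cells (SD, n = 3 each; edgeR adjusted p = 0.00695), a call lost with library totals only (adjusted p = 0.0951). PRDX3, the mitochondrial form, had 181, 230 and 172 CPM in knockout libraries, against 229, 229 and 235 CPM in control libraries. Knockout library 2 lay among the controls and the others below them; the log2 fold change was -0.25 (edgeR adjusted p = 0.0933), and -0.39 without that library (adjusted p = 4.13e-04). PRDX3 also passed as lower with the offset (-0.22, adjusted p = 0.0190) and on library totals alone (-0.42, adjusted p = 0.0163), but lay at 0.08 with median transcripts in the offset (adjusted p = 0.446). The group had 5 higher and 2 lower with the offset, against 6 and 0 without it. PRDX1, PRDX4, PRDX5 and SRXN1 passed as higher with the length and GC offset too, at 0.33, 0.69, 0.38 and 0.67, each below its value without it.

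Of the superoxide dismutases and catalase, SOD2 rose, CAT fell and SOD1 did not pass. SOD2, the mitochondrial manganese enzyme and also a target of NF-kB, had 810, 953 and 683 CPM in knockout libraries, against 265, 282 and 277 CPM in control libraries. It rose 2.97-fold (log2 fold change 1.57, SE 0.12; edgeR adjusted p = 2.37e-05). Each knockout library exceeded every control by a wide margin. The length and GC offset put it at 2.75, a value that rests on an annotated canonical transcript of 14167 bases; with the median transcript of the gene, 917 bases, an alternative chosen after seeing the data, it was 1.36. SOD1, the cytosolic copper and zinc enzyme, had 339, 426 and 305 CPM in knockout libraries, against 329, 301 and 303 CPM in control libraries (log2 fold change 0.20, edgeR adjusted p = 0.202, -0.02 with the offset, and 0.27 with adjusted p = 0.0269 with median transcripts in it). CAT, catalase, had 42.1, 54.1 and 44.4 CPM in knockout libraries, against 56.6, 60.0 and 59.7 CPM in control libraries. The groups did not overlap. But its fall (log2 fold change -0.33, edgeR adjusted p = 0.0364) lost the call without any 1 library except knockout library 2. Adjusted p was 0.0759, 0.144 and 0.131 without control library 1, 2 or 3, and 0.122 and 0.118 without knockout library 1 or 3. The call was also lost with upper-quartile factors (edgeR adjusted p = 0.0523). CAT lay at -0.40 with the offset (edgeR adjusted p = 0.00193) and at -0.05 with median transcripts in it (edgeR adjusted p = 0.655).

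The remaining 7 members, mostly enzymes that clear quinones, carbonyls and epoxides, had 4 higher and 1 lower (57.1% and 14.3%, against 28.9% and 30.8% of all genes). NQO1, the quinone reductase that is the usual readout of NRF2, had 650, 732 and 647 CPM in knockout libraries, against 503, 495 and 476 CPM in control libraries. It rose 1.38-fold (log2 fold change 0.46, SE 0.09; edgeR adjusted p = 0.00166) without overlap. EPHX1, microsomal epoxide hydrolase, had 203, 211 and 230 CPM in knockout libraries, against 93.2, 84.8 and 81.2 CPM in control libraries (2.48-fold higher; log2 fold change 1.31, SE 0.10; edgeR adjusted p = 1.90e-05). OSGIN1, an oxidative stress induced growth inhibitor, had 42.0, 44.6 and 46.0 CPM in knockout libraries, against 17.7, 18.5 and 16.9 CPM in control libraries (2.50-fold higher; log2 fold change 1.32, SE 0.10; edgeR adjusted p = 2.38e-05). Both sets of libraries were tight for these genes. SLC48A1, a haem transporter, had 38.5, 28.4 and 33.9 CPM in knockout libraries, against 49.1, 50.1 and 51.6 CPM in control libraries, and fell (log2 fold change -0.58, SE 0.13; edgeR adjusted p = 0.00326).

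Of the neighbouring carbonyl reductase genes CBR1 and CBR3, only CBR1 passed in this test. CBR1 had 249 ± 37.6 CPM in knockout and 148 ± 8.76 CPM in control cells (SD, n = 3 each; 1.68-fold higher; edgeR adjusted p = 6.67e-04), and CBR3 26.3 ± 2.87 CPM in knockout and 24.4 ± 0.534 CPM in control cells (adjusted p = 0.447). Under the length and GC offset, CBR1 lost its call (0.14, adjusted p = 0.215, and 0.29 with adjusted p = 0.0451 with median transcripts) and CBR3 passed as lower (-0.55, adjusted p = 0.00117); the difference between them was not tested. AIFM2, a quinone reductase that limits lipid peroxidation apart from GPX4, had 32.5 ± 1.35 CPM in knockout and 33.1 ± 2.21 CPM in control cells (adjusted p = 0.840), and passed as lower with the offset (-0.28, adjusted p = 0.0341) but not with median transcripts in it (-0.07, adjusted p = 0.646). With the offset NQO1 lay at 0.52, EPHX1 at 0.73, OSGIN1 at 0.67 and SLC48A1 at -0.91, all past the threshold.

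Per kilobase of canonical transcript, the only scale on which levels of different genes are set side by side, the members spanned a wide range. PRDX1 led with 1791 CPM per kilobase in knockout and 1133 in control cells. In control cells TXN (684), GPX1 (402), SOD1 (348), PRDX5 (286) and GPX4 (285) followed, PRDX5 and GPX4 without separation beyond their spread. In knockout cells SQSTM1 (744), TXN (735), GPX4 (668) and PRDX5 (607) followed PRDX1. Their library values overlapped between SQSTM1, TXN and GPX4, and those of PRDX5 overlapped with both TXN and GPX4. SQSTM1 had 218 CPM per kilobase in control cells, and BACH1 was lowest in both groups, at 1.27 in knockout and 2.68 in control cells. The order depends on the transcript chosen. By the median transcript of each gene, chosen after seeing the data, SQSTM1 was first in knockout cells (2508 CPM per kilobase, and 736 in control cells), PRDX1 was first in control cells (1546 in knockout and 979 in control cells), and MAFF was lowest in both.

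**Figure D2:**
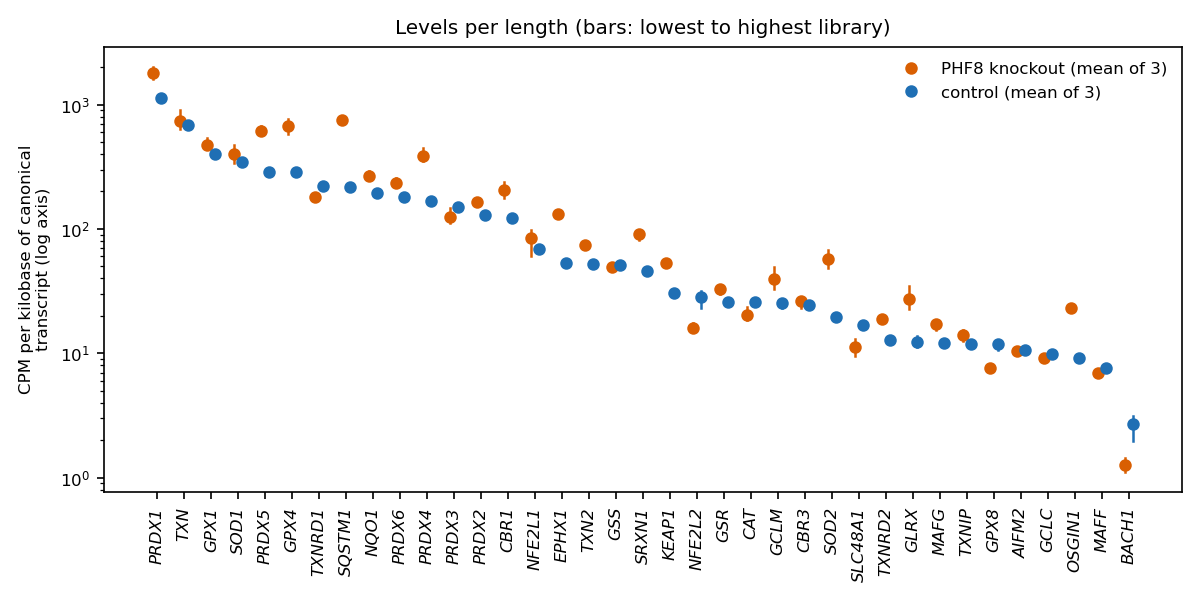
Mean CPM per kilobase of canonical transcript on a log axis for 37 members, in order of the control mean, with knockout in orange left of control in blue and bars from the lowest to the highest of 3 libraries. On this scale PRDX1 is highest and BACH1 lowest in both groups, and SQSTM1 comes second in knockout cells (744 against 218 CPM per kilobase in control cells).

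Ratios of reads within a library do not depend on how libraries are scaled. The log2 ratio of GCLM to GCLC was 2.48 ± 0.20 in knockout and 1.73 ± 0.11 in control libraries (SD, n = 3 each), a difference of 0.75. For KEAP1 to NFE2L2 it was 1.81 ± 0.14 in knockout and 0.17 ± 0.33 in control libraries, a difference of 1.64. The ratio of TXNRD1 to its partner's inhibitor TXNIP was lower in knockout libraries, at 4.08 ± 0.11 against 4.63 ± 0.12 in control libraries, a difference of -0.55. For SRXN1 to PRDX1 it was -2.89 ± 0.20 in knockout and -3.21 ± 0.09 in control libraries, a difference of 0.32 that was 0.21 without knockout library 3. In all 4 pairs the groups did not overlap, and the exact two-sided permutation test gave p = 0.10, the smallest that 3 against 3 libraries allow, so none can pass 0.05. With the length and GC offset the differences kept their signs at 1.21, 1.05, -0.34 and 0.34.

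**Figure D3:**
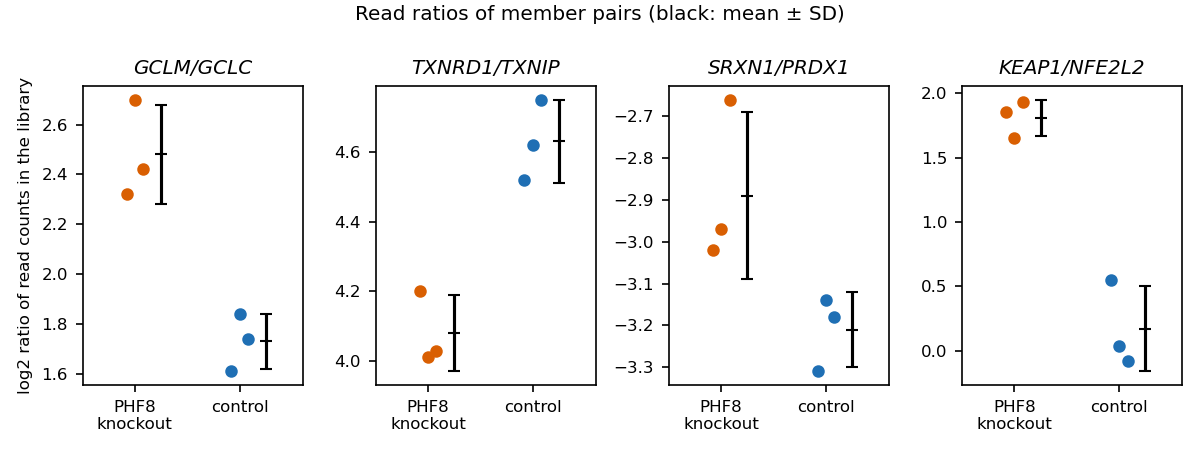
Log2 ratio of read counts within each library for 4 pairs of members, knockout left of control, with the mean ± SD in black. The groups are apart in every pair, by 1.64 for KEAP1/NFE2L2 and by 0.32 for SRXN1/PRDX1, and the vertical axes differ between panels.

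Fold changes in these data ran with transcript length and GC content, and many members are short. Across 13303 tested genes with both values, which are not independent replicates, Spearman's correlation of the log2 fold change was -0.41 with length and 0.48 with GC content. Across the 37 members it was -0.24 and 0.34, and their median length was 2291 bases against 3173 bases. Of 10 members under 1000 bases 6 rose; with an offset for both trends, fitted per library, 5 of them passed as higher and 3 as lower. Over all members the offset left 18 higher and 10 lower, against 30.5% and 28.1% of all genes, with a median of 0.20 against 0.01. Of the 26 called members 19 passed in the same direction with it, 1 (PRDX2) passed in the opposite one and 6 lost the call. A further 8 members passed only with it. Of all 8593 called genes 5651 passed in the same direction, 431 in the opposite one and 2511 lost the call. Another 2350 genes passed only with the offset. After the offset the correlation of the log2 fold change with length was 0.12 across all genes and also 0.12 across members, and with GC content 0.012 and -0.11, so a small length trend of opposite sign was left. Where the trends come from was not tested.

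**Figure D4:**
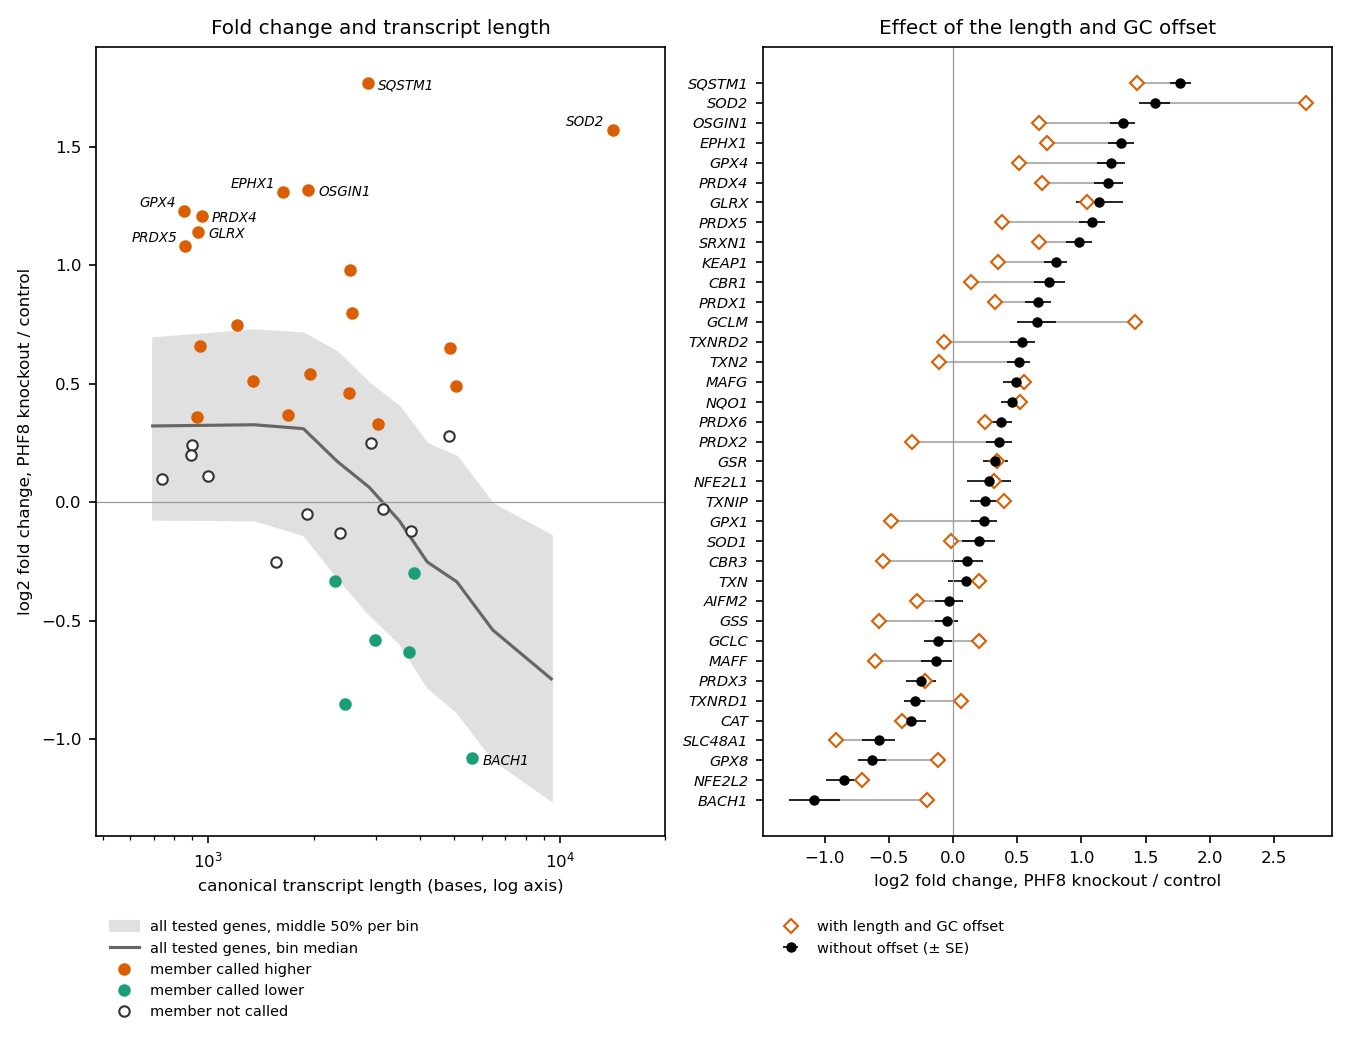
Left, log2 fold change of knockout over control against canonical transcript length (log axis) for 37 members, on the median and middle 50% of all tested genes in 10 length bins. Right, each member's log2 fold change with its SE (black) and with the length and GC offset (open orange), where GCLM (0.65 and 1.42) and SOD2 (1.57 and 2.75) move up and GPX4 (1.23 and 0.51) moves down.

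Of the 26 called members, 15 kept call and direction under all 16 alternative settings. These were 13 of the 20 that rose (SQSTM1, KEAP1, GCLM, GPX4, GLRX, PRDX1, PRDX4, PRDX5, SRXN1, SOD2, NQO1, EPHX1 and OSGIN1) and 2 of the 6 that fell (NFE2L2 and SLC48A1). The share of all called genes that did so was not counted, so whether this is usual in the data is not known. Knockout library 2 held the highest of the 3 knockout levels for 25 of 37 members, against 39.8% of all tested genes. Its ratio to the other 2 knockout libraries also ran with length (Spearman's correlation -0.46 across all genes, -0.48 across members). Leaving it out gave 21 members higher and 7 lower, and 4647 and 4895 of all genes. The gene spans of 20 members overlap another protein-coding gene in GENCODE, 14 of them on the other strand (among them SQSTM1, NFE2L2 and SOD2), and it is not known whether counting used strand. TXN, GLRX, GPX1, SOD1, SOD2 and PRDX1 to PRDX5 have pseudogenes in GENCODE, so the source of some of their reads is uncertain.

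The wider pathway was read from 112 further genes in 5 lists, of which 103 were tested, with 47 higher and 24 lower (45.6% and 23.3%, against 28.9% and 30.8% of all genes). Among 33 other NRF2 targets 20 rose and 2 fell (60.6% and 6.06%), with a median log2 fold change of 0.68, and with the length and GC offset 21 were higher and 2 lower (median 0.43). Of the 22 called without it, 17 kept call and direction and 5 lost the call, while 6 others passed only with it. The genes lower with the offset were not those lower without it. HMOX1, the inducible haem oxygenase, had 875, 1376 and 1232 CPM in knockout libraries, against 90.0, 84.3 and 87.8 CPM in control libraries, and AKR1C1, AKR1B10 and CYP4F11 rose 27.6-fold, 8.07-fold and 4.06-fold. AKR1C1 has near-identical paralogs that may share its reads. Among 13 other regulators 2 rose and 6 fell (61.5% called, near the 59.7% of all genes; median -0.16), with the NRF2 relative NFE2L3 1.70-fold lower, the KEAP1-binding phosphatase PGAM5 1.78-fold higher, and the degron factors FBXW11 and GSK3B 1.55-fold and 1.53-fold lower. With the offset 4 regulators were higher and 5 lower; GSK3B lay at 0.29 (adjusted p = 0.0134) and FBXW11 at -0.17 (adjusted p = 0.0606). Among 21 other glutathione genes 10 rose and 6 fell (47.6% and 28.6%; median 0.32), with 5 higher and 7 lower with the offset (median 0.01). GGT1, which breaks down extracellular glutathione, rose 2.82-fold, while the glutathione-binding LANCL1 fell 2.53-fold. The mitochondrial glutathione carrier genes SLC25A39 and SLC25A40 moved apart, the first rising 1.72-fold (0.12 on the log2 scale with the offset, adjusted p = 0.122) and the second falling 2.74-fold.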

How the data were processed

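RNA-seq counts from 3 PHF8 knockout and 3 control libraries of 786-O cells were used. Per the labels' series design text the authors filtered reads, mapped them to GRCh38 with HISAT2 (version 2.0.4 per the submitters' processing notes) and counted genes with HTSeq; the counting's strand setting and annotation are not stated. The deposited values are raw counts per symbol, unnormalized. Knockout was tested against control with edgeR 4.0.16 (quasi-likelihood, TMM factors, filterByExpr, group as the only term; limma 3.58.1, R 4.3.3), Benjamini-Hochberg adjusted over 14398 genes. SE is the log2 fold change over the root of F. Fold changes used a prior count of 0.125. CPM uses the TMM-scaled library sizes, except for cell type markers (library totals). Lengths, GC content and coordinates come from GENCODE release 44 canonical transcripts on GRCh38, matched by symbol (92.4% of tested genes). The offset removed per-library lowess trends (span 0.3) on log2 length, then GC content, around the mean of all libraries. Pair ratios added 0.5 to each count. The biological coefficient of variation was 14.1%, and 17.23% among knockout and 10.25% among control libraries taken alone. No libraries were duplicates (chi-square per degree of freedom 3.10 to 74.3 within groups). On simulated counts with 200 changed genes, this comparison's test recovered 29.9% of 1.5-fold, 67.2% of 2-fold and 93.9% of 4-fold changes over the 14158 genes kept, and 9 of 136 calls were false. In the real data 59.7% of genes passed, a far larger share than was changed in the simulation, so these rates need not hold there.

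Members, lists and tests were chosen with earlier results of these data known. Named genes were all members, PHF8 and, from each further list, up to 4 called genes with the smallest p; a gene it names is not reported here. Older symbols were matched for 9 of the further genes. Alternatives were median-ratio, upper-quartile and no scaling factors, a stricter filter (over 1 CPM in every library of either group) or none, DESeq2 1.42.0, limma-voom, a replicate block, leaving out each library, and the offset. Promoter sequences are from RefSeq tables.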

Additional observations from a re-analysis of the deposited data

How the results depend on the processing

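Counts of called members moved by over 1.5 times only for falls with the length and GC offset, 10 against 6. Log2 fold changes turned round with the offset for GPX1 (-0.48), TXN2 (-0.11), TXNRD1 (0.06), TXNRD2 (-0.07), PRDX2 (-0.32), CBR3 (-0.55), GCLC (0.20) and SOD1 (-0.02). With median transcripts in the offset, an alternative chosen after seeing the data, they turned round for GCLC (0.22), GSR (-0.04), GPX1 (-0.32), GPX8 (0.08), PRDX2 (-0.16), CBR3 (-0.42), NFE2L1 (-0.11) and PRDX3 (0.08), and 19 members were higher and 8 lower. GPX1, CBR3, GCLC, SOD1, NFE2L1 and PRDX3 were not called without an offset. The cause was not tested. Leaving out 1 library gave 19 to 22 members higher and 4 to 7 lower, 42 to 48 and 20 to 29 of the further genes, a PHF8 log2 fold change of -1.99 to -1.56, and ratio differences of 0.64 to 0.83 (GCLM/GCLC), 1.52 to 1.83 (KEAP1/NFE2L2), -0.61 to -0.49 (TXNRD1/TXNIP) and 0.21 to 0.39 (SRXN1/PRDX1). Over all genes, leaving out 1 library gave 3586 to 4647 higher and 3584 to 4895 lower. Library totals only gave 17 members higher and 8 lower, and DESeq2 and limma-voom 20 and 6 each. Over all genes the counts were 3153 and 5441 with library totals only and 4304 and 3975 with median transcripts in the offset. They were 4102 and 4292 with DESeq2, 4105 and 4483 with limma-voom and 3895 and 4413 with the replicate block. Libraries with the same number did not deviate together (correlations 0.02, -0.04 and 0.01; 1 of 6 correlated best with its own number), and the replicate block gave 20 and 6 as well, with the call of all 37 members kept. GPX3, at 1 read in all, is below what this depth can compare.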

Other observations

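Of 13 tested genes on superoxide, quinones and lipid peroxides outside the 38 members, 7 rose and 3 fell (53.8% and 23.1%, against 28.9% and 30.8% of all genes; median log2 fold change 0.33), with 5 higher and 0 lower with the length and GC offset. CYBA, a membrane subunit of NADPH oxidases, rose 1.61-fold, though the offset gave a log2 fold change of -0.07 (adjusted p = 0.461). SOD3, the extracellular superoxide dismutase, had 17.9 ± 0.167 CPM in knockout and 7.64 ± 0.688 CPM in control cells (SD, n = 3 each; 2.34-fold higher), and CCS, the copper chaperone of SOD1, rose 1.99-fold (0.27 with the offset), while SOD1 itself did not pass.

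Of 23 tested thioredoxin-fold, selenoprotein and methionine sulphoxide genes 8 rose and 7 fell (34.8% and 30.4%, near the shares of all genes; median 0.13), with 7 higher and 9 lower with the offset. The selenoprotein genes SELENOM (listed as SELM) and SELENOS (listed as VIMP), both of the endoplasmic reticulum, rose by 1.58 and 1.31 on the log2 scale, and PSTK, a kinase of selenocysteine synthesis, rose 2.44-fold. SELENON (listed as SEPN1), also of the endoplasmic reticulum, fell 2.07-fold, at 40.7 ± 10.3 CPM in knockout and 84.2 ± 5.54 CPM in control cells (SD, n = 3 each). With the offset the calls of all 4 kept their direction.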
